A study of Mus musculus and Bos taurus with 2 samples.

Results

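The LKB1 complex genes are the 5 genes Stk11, Strada, Stradb, Cab39 and Cab39l. They were chosen by name, and all 5 had transcript models in both libraries, among 14090 named genes with a model on their own strand in mouse and 13375 in bovine. A model counted for a gene when it carried that gene name, in either case, and 1 of the class codes =, c, k, m, n, j or o, which mark an exact intron match or a same-strand overlap with the reference gene. The genes were proposed with first-exon counts of these data in view, so those counts are given as a description, without a test. Long cDNA reads from a nanopore sequencer had been assembled into transcript models, and these models are the data. The mouse library came from late 2-cell embryos of the Slc:ICR stock, fertilized and cultured in vitro to 36 h after insemination. The bovine library came from embryos of 8 to 16 cells taken 72 h after insemination, from oocytes matured in vitro whose donors were Japanese Black cattle or their F1 cross with Holstein, and sperm of a Japanese Black bull. About 200 embryos were pooled for each library, and the labels name no treatment. With 1 library for mouse and 1 for bovine, replicate error could not be measured, and species, stage and reference annotation cannot be told apart in any difference between them.

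LKB1, the product of Stk11, is a serine/threonine kinase known as a tumour suppressor. It is active when bound to a STRAD pseudokinase, encoded by Strada or Stradb, and to the scaffold protein MO25, encoded by Cab39 or Cab39l. The complex phosphorylates AMPK, the energy sensor of the cell, and a family of AMPK-related kinases, and it is known for its part in cell polarity and energy balance, in oocytes and early embryos among other cells.

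The models carry no read counts. The number of models of a gene is therefore not its abundance, a missing model does not show that a gene is silent, and in a pool fewer embryos with a transcript cannot be told apart from less RNA per embryo. Libraries were checked by marker genes: all 8 mouse 2-cell genes had a model in mouse, all 5 genes of bovine genome activation in bovine, and all 7 oocyte genes in both. Markers of cumulus and granulosa cells had a model for 3 of 7 genes in mouse and 2 of 7 in bovine, and sperm for 2 of 5 in each. Of 5 blood genes, 1 had a model in mouse, Lyz2. Bovine PTPRC and CD3E had 1 model each that was not exact. After the other markers were seen, more blood genes were looked up by their bovine symbols. The globin genes HBA, HBA1 and HBB had 1 exact model each, and LYZ, LYZ1, LYZ2 and LYZ3 had none. Models of some blood genes were thus present in the bovine pool. The part of other cells in the results below was not tested.

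The sequences around the starts of the genes are shown because the mouse models separate by whether they begin there. Each line gives 100 bases before and 30 bases from the start of the gene in the RefSeq promoter table (build GRCm38.p6), with the first base of every mouse model that falls in the line in capitals.
Strada chr11:106193574-106193703 (minus strand): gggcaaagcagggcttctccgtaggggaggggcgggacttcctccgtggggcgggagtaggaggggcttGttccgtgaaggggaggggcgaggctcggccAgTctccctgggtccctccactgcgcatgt
Stradb chr1:58973422-58973551 (plus strand): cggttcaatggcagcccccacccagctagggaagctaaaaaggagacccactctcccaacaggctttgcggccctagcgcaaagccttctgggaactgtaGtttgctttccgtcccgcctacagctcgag
Cab39l chr14:59440863-59440992 (plus strand): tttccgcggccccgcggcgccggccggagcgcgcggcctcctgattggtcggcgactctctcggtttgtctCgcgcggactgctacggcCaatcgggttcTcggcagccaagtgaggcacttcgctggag
Stk11 chr10:80115695-80115824 (plus strand): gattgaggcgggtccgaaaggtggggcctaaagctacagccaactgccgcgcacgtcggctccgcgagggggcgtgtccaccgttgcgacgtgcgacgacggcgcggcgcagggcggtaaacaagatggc
Cab39 chr1:85793341-85793470 (plus strand): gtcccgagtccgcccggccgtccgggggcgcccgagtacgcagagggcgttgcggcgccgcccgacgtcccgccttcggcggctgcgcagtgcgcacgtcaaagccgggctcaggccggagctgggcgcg
The windows of Strada, Stradb and Cab39l carry 3, 1 and 3 marked bases. Those of Stk11 and Cab39 carry none. Strada model 6, the 2 Stradb models and Cab39l model 3 begin exactly at the RefSeq start base, so these starts may come from the reference. Over the full 300-base windows (250 before the start and 50 from it), 6 of 6 Strada models, 2 of 2 Stradb models and 3 of 3 Cab39l models began inside, against 0 of 7 for Stk11 and 0 of 3 for Cab39. All 5 windows were rich in G and C, between 61.3% for Stk11 and 70.0% for Cab39l beside a median of 52.7% over 32851 promoter windows, and held 16 to 35 CpG dinucleotides beside a median of 7. The letters CCAAT, read on both strands, occurred 3 times in the Stk11 window and 2 times in that of Cab39l, and in 37.4% of all windows. GGGCGG, on both strands, occurred 2 times for Strada, 2 times for Cab39 and 1 time for Stk11, and in 35.7% of all windows. TATAAA, on both strands, was in none of the 5 and in 13.6% of all windows. A second Cab39l window in the table, further inside the gene, held no model start. Its share of G and C was 45.7% and it held 3 CpG, both below the medians.

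**Figure D1:**
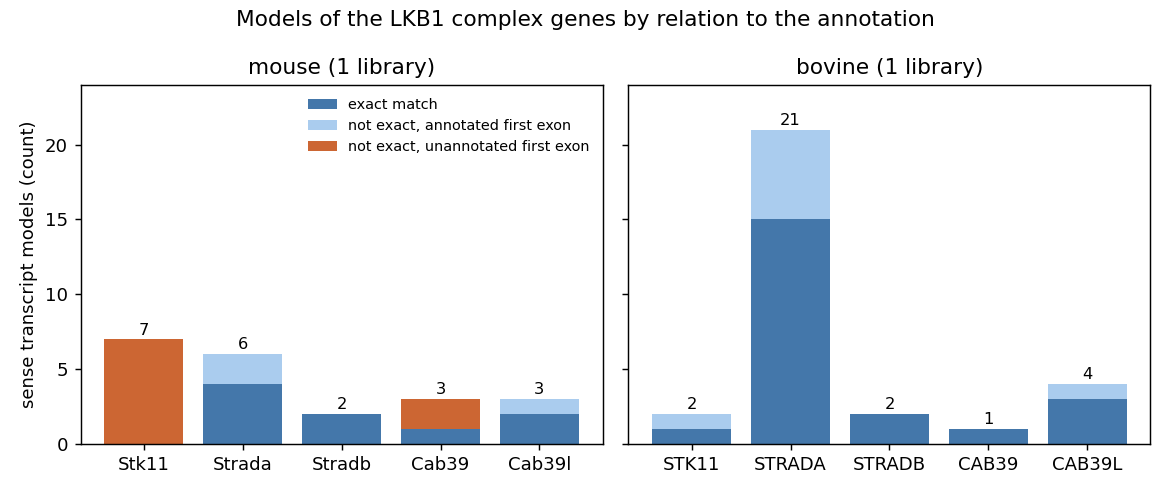
Number of sense transcript models (vertical axis, count) for each of the 5 genes (horizontal axis) in the mouse and the bovine library, split into exact matches, other models with an annotated first exon and other models with an unannotated first exon; 1 library per species, so there are no error bars. All 7 Stk11 models have an unannotated first exon and none is exact, and bovine STRADA stands highest with 21 models.

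In all, the 5 genes had 21 models in mouse, 9 of them exact matches, and 30 in bovine, 22 of them exact. Per gene, mouse had 7 for Stk11, 6 for Strada, 2 for Stradb, 3 for Cab39 and 3 for Cab39l. Bovine had 2 for STK11, 21 for STRADA, 2 for STRADB, 1 for CAB39 and 4 for CAB39L. The gene with most models thus differed, Stk11 in mouse and STRADA in bovine. In mouse, 3.37% of all genes had at least 7 models, and in bovine 0.0299% had at least 21. Whether the number of models goes with the number of isoforms that each reference lists was not tested.

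A first exon was called unannotated when it overlapped no same-strand exon of GENCODE M21 and of the exact matches in the library, in a model of at least 2 exons. Among the mouse models 9 had such a first exon, 7 of Stk11 and 2 of Cab39, and none of Strada, Stradb or Cab39l. Over all mouse genes 20.5% had at least 1 such model and 0.0923% at least 7. Bovine exact matches served as the annotation there, so the 22 exact bovine models could not be called. Of the other 8, 0 had a first exon outside the exact matches (exact 95% interval up to 36.9%, counting error only). The STK11 model among them begins in an inner exon of the exact match, so it could not be called either. The interval takes models as independent, yet 6 of the 8 belong to STRADA. Of these 6, 1 is contained in a reference transcript (class code c). Of bovine genes with an exact spliced match, 17.9% had at least 1 model with a first exon outside the exact matches. The same rule called 16.8% of such mouse genes. Because these counts were known when the genes were chosen, nothing is read from the shares.

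**Figure D2:**
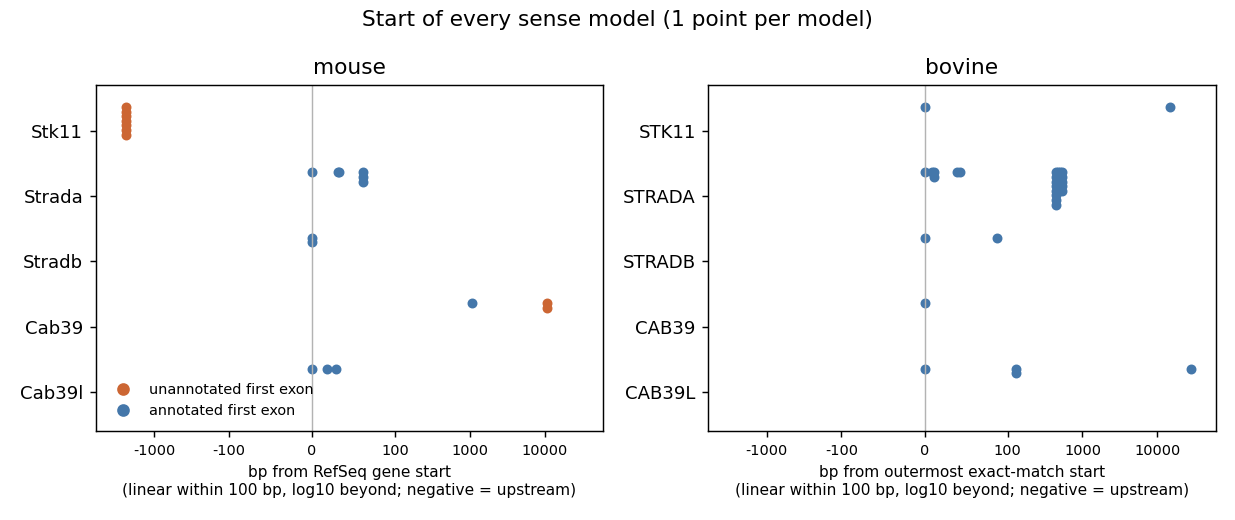
Start of every sense model, 1 point per model, as its distance in bp (linear within 100 bp and log10 beyond, negative upstream) from the RefSeq gene start in mouse and from the outermost exact-match start in bovine. The 7 Stk11 models share a start 2327 bp upstream, 2 Cab39 models lie 10730 bp downstream, and the 21 bovine STRADA models fall into 2 groups.

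Mouse Stk11, which encodes the kinase itself, lies on the plus strand of chromosome 10 (mm10), where GENCODE M21 places the gene at 80115803 to 80130682. All 7 models began at base 80113440, in a first exon of 152 bp that ends at 80113591. This start is 2363 bp upstream of the outermost GENCODE start and 2327 bp upstream of the RefSeq gene start, where neither annotation lists a gene on either strand. The nearest upstream gene, Sbno2, lies on the opposite strand, and its outermost model start is 10715 bp away. Among all mouse genes, 2.88% had only models of this kind, with an unannotated first exon at least 100 bp upstream. No model of Stk11 was an exact match, as for 27.5% of mouse genes. The 7 models belong to 1 assembled locus, so their common start is 1 observation rather than 7. Whether the exon lies in a transposable element was not tested, and its sequence is not printed because no genome sequence was used here.

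The first exon was joined to the gene in 2 ways. In 5 models it was spliced over 11.2 kb to the exon at 80124802, which is the second exon of the main reference transcript Stk11-201. These models lack the first coding exon, with its 290 coding bases and the start codon at 80116618. In the other 2 models (models 2 and 7) it was spliced over 2.81 kb to base 80116401, inside the long annotated first exon, and the start codon followed 217 bp further on. Neither that acceptor nor the donor at 80113591 is a splice site of GENCODE.

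The splice sites of Stk11 that lie inside annotated exons can be read from the GENCODE M21 transcripts (build GRCm38). They are shown because they mark where some models leave the main reference transcript Stk11-201. Each line gives 30 bases of the plus strand with the intron's terminal dinucleotide in capitals.
Acceptor joined to the 152-bp exon in 2 models chr10:80116381-80116410: ttttctccctgagcacctAGaagaaaaggg
Acceptor of the intron retained in model 3 chr10:80125459-80125488: tgctttccttagcgccctACgtatatggtg
Acceptor used in model 5 chr10:80127938-80127967: ctcgtacctatcccaccaAGcccagacact
Donor used in model 6 chr10:80130038-80130067: tgcgcgcaagGTgtgctccagcaacaagat
The acceptor at 80116401 ends in AG, the usual end of an intron, after a run rich in T and C. The intron that model 3 retains, 593 bp long, ends in AC. As background, LKB1 is known to contain an intron of the rare AT-AC class, which the minor spliceosome removes. The other 6 models had this intron spliced out. Model 5 used an acceptor that removes 54 bp (18 codons) from the exon at 80127904, which GENCODE also lists. Model 6 used a GT donor inside the exon at 80129905 that removes its last 64 bp and with them the annotated stop codon.

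**Figure D3:**
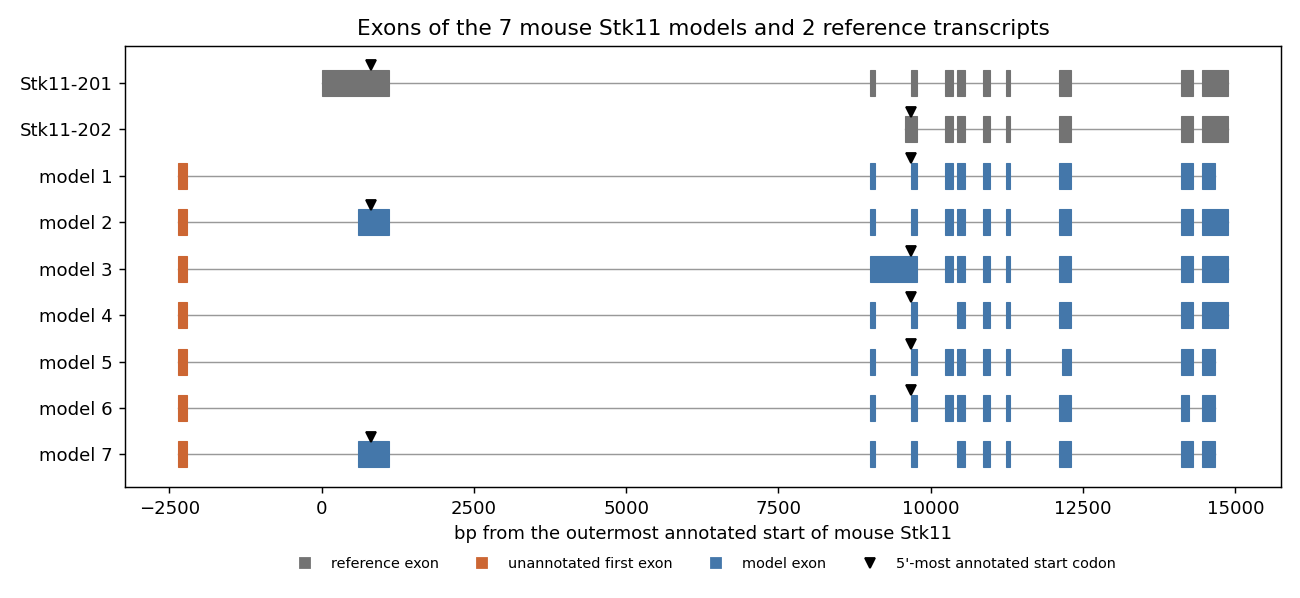
Exons of the 7 mouse Stk11 models and of the reference transcripts Stk11-201 and Stk11-202, drawn to scale as distance in bp from the outermost annotated start of the gene (horizontal axis); triangles mark the most upstream annotated start codon in each. Models 2 and 7 contain the start codon of Stk11-201, and the other 5 contain that of Stk11-202.

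Reading frames were followed in the known sequence from the most upstream annotated start codon in each mouse model. Reference coding parts, start codons and stops are those of GENCODE M21. For Stk11, model 2 kept the whole coding part of Stk11-201, with 436 codons. Models 1 and 3 kept that of the shorter reference form Stk11-202, which starts at 80125483 and has 310 codons, 126 fewer at the amino end. As background, the kinase domain of LKB1 begins within the part that is missing there. Model 5 kept the same start and stop with 292 codons. Models 4 and 7 lack the 133-bp exon at 80126033, whose length is not a multiple of 3, and their frames ended at 80127989 after 164 and 290 codons, a stop 318 bases before the last exon junction. In model 6 the frame was open for 365 codons to the end of the model. The last exon of Stk11-210, the reference form with a different carboxyl end, overlapped none of the 7 models. The 152-bp exon has no sequence here, so start codons inside it were not searched.

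Bovine STK11, on the plus strand of chromosome 7 (bosTau9), had 2 models. One is an exact match of 10 exons from 43655511 to 43672270 with a first exon of 837 bp. The other has only the last 2 exons, from 43670236, and is contained in the first. Since the exact match served as the annotation and the other model lies inside it, an upstream start could not be called here. In the order of the gene, 6 internal exons had the same length in both species (84, 90, 133, 137, 128 and 58 bp), and the next 2 measured 197 and 207 bp in mouse against 194 and 214 bp in bovine.

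Strada encodes STRAD alpha, the pseudokinase that binds and activates LKB1. The mouse gene lies on the minus strand of chromosome 11, and its 6 models ran from 106193634, 106193603, 106193601 or 106193572 to 106163316 or 106163325. All 6 shared the splice donor at 106193466, so that their first exons of 107 to 169 bp differ only in the start, within 62 bp. No model began at the outermost GENCODE start, 8.53 kb further upstream. Models 1, 4, 5 and 6 were exact matches, and models 2 and 3 were not.

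Bovine STRADA, on the minus strand of chromosome 19 (47980018 to 48008110), had 21 models, 15 of them exact. Joined within 50 bp, their starts formed 2 clusters 403 bp apart, and joined within 10 bp they formed 6. The upstream cluster, at 48008067 to 48008110, held 6 models, all exact. The downstream cluster, at 48007585 to 48007664, held 15, of which 9 were exact. None of the 5 models that began at 48007585 was exact, whereas 7 of the 8 that began at 48007664 were. Of the 5, model 4 is contained in a reference transcript (class code c). The first exons differed too. Among the 8 models that began at 48007664, 6 had a first intron of 79 bp, followed by a second exon of 166, 210 or 364 bp. The first exons of models 1, 2 and 6, which began at 48007585, ran on through that intron. In the upstream cluster, model 16 had a second exon of 154 bp.

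**Figure D4:**
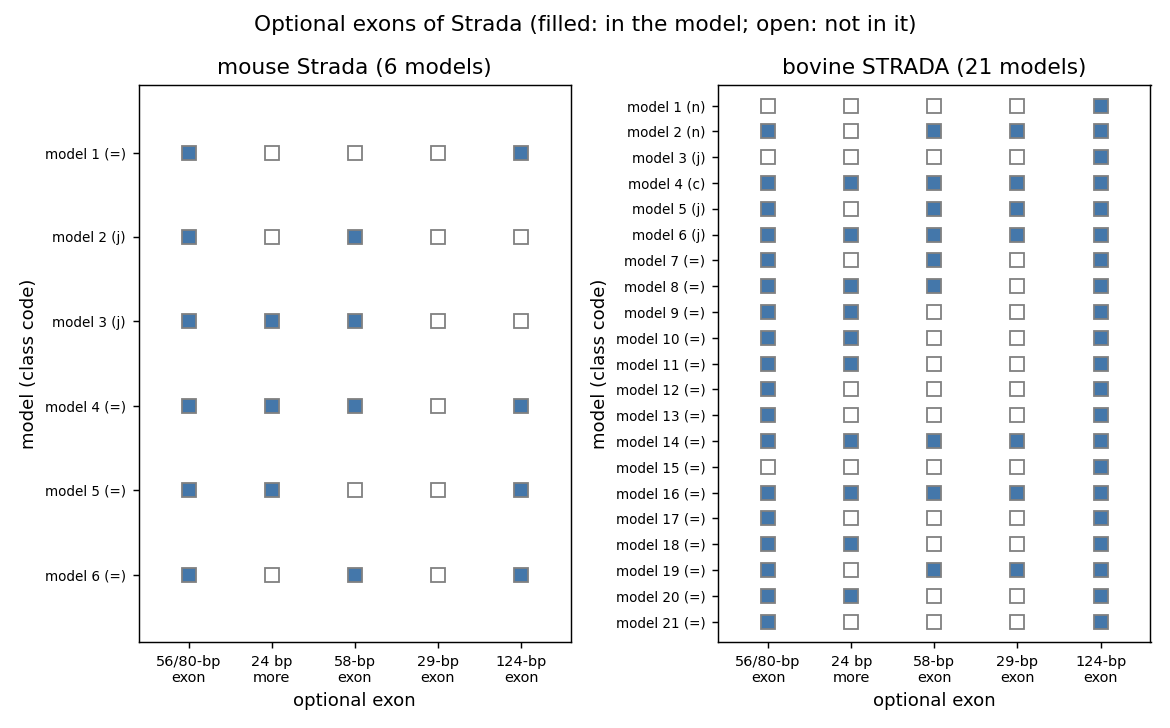
Optional exons (columns) in each of the 6 mouse and 21 bovine Strada models (rows, with the class code); a filled square means that the model contains the exon. The 29-bp exon is filled in 7 bovine models and no mouse model, and the 124-bp exon is open only in mouse models 2 and 3.

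Several exons were optional in 1 or both species, and the lengths of those found in both were equal. The bovine second exons close to the starts, given above, are not counted here. An exon of 56 bp could run on for 24 bp to 80 bp: the long form was in 3 of 6 mouse models and 10 of 21 bovine models, the short form in 3 and 8, and 3 bovine models had neither. It was followed by an optional exon of 58 bp, in 4 mouse and 9 bovine models, and by one of 29 bp, in 0 mouse and 7 bovine models. The 29-bp exon always came with the 58-bp exon, so 7 of 9 bovine models with the 58-bp exon had both, while all 4 such mouse models had it alone. GENCODE lists the 29-bp exon in the mouse gene, in Strada-201. The pair adds 87 bp, which is 29 whole codons, and neither exon alone is a multiple of 3. By start, 4 of the 5 bovine models beginning at 48007585 had both exons, 0 of the 8 beginning at 48007664, and 3 of the 6 in the upstream cluster. An exon of 124 bp further on was missing from mouse models 2 and 3 and present in all 21 bovine models.

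These exons decided the mouse reading frames. Models 1 and 5, without the 58-bp exon, kept frames of 394 and 402 codons from the annotated start codon at 106187136 to the annotated stop, 8 codons apart by the 24 bp. The longest reference protein, of Strada-201, has 431. Models 2, 3, 4 and 6, with the 58-bp exon alone, reached a stop at 106173774 after 25 or 33 codons. In models 4 and 6 the longest frame from any ATG to a stop began downstream, at 106173733. It had 374 codons and ended at the annotated stop. In models 2 and 3, which also lack the 124-bp exon, it had 212.

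Stradb encodes STRAD beta, the second pseudokinase. Mouse Stradb lies on the plus strand of chromosome 1, and both models were exact and shared the ends 58973522 and 58995122, which are the ends of the RefSeq gene. Model 1 has 12 exons and kept all 418 codons of the reference. Model 2 lacks the 172-bp exon at 58992204, and its frame ended after 189 codons, 371 bases before the last junction. Bovine STRADB, on chromosome 2, had 2 exact models starting 87 bp apart, at 90008661 and 90008748. Model 1 lacks the 43-bp exon at 90038822 and ends at 90039438, and model 2 ends at 90039906. Both bovine models keep the 172-bp exon.

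Cab39 encodes MO25 alpha, the scaffold that holds LKB1 and STRAD together. The mouse gene lies on the plus strand of chromosome 1, and its 3 models began at 2 places 9.65 kb apart. Model 1, exact, began at 85794516 in an annotated exon of 34 bp. Models 2 and 3 began at 85804171 in an unannotated exon of 123 bp, which lies 10.7 kb downstream of the outermost GENCODE start, inside an annotated intron, and was spliced over 14.1 kb to the exon at 85818357. That exon holds the start codon, at 85818400, so all 3 models kept the whole reference coding part of 341 codons. The exon structures of the RefSeq transcripts were not used here, so whether RefSeq lists this exon was not tested.

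Model 3 of Cab39 had 1 more intron, of 83 bp, in the last exon. It lies 60 bases behind the stop codon and its sites are shown in the same form because its donor is not the usual GT.
Donor in model 3 of Cab39 chr1:85849272-85849301: tcagcatcagGCactctcatcggttcatgg
Acceptor in model 3 of Cab39 chr1:85849345-85849374: tttacctttttgtttttcAGtccaggttgg
The intron begins with GC and ends with AG. Neither site is listed in GENCODE. Models 2 and 3 ended at 85849725 and model 1 at 85851460. Bovine CAB39, on chromosome 2, had 1 exact model of 9 exons from 118530760 to 118631590, whose first exon of 22 bp lies 45.0 kb before the next.

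Cab39l encodes MO25 beta, the paralogous scaffold. Mouse Cab39l lies on the plus strand of chromosome 14, and its 3 models began at 59440934, 59440952 and 59440963, within 29 bp of each other and 38, 20 and 9 bp upstream of the outermost GENCODE start. None was upstream of the RefSeq gene start, which is the first of these positions. Over all mouse genes 29.8% had at least 1 model upstream of the outermost GENCODE start. All 3 used the same first donor. Model 3, exact, kept the 337 reference codons. Model 1, exact, lacks the 60-bp exon at 59526756 and has 20 codons fewer, 317, in the same frame. Model 2, not exact, ends at 59500733, 1025 bp beyond the 165-bp exon at 59499544, and its frame had 106 codons. Bovine CAB39L, on the minus strand of chromosome 12, had 4 models with starts at 19012316, 19012186 (2 models) and 18984122. The last of these lies 28.1 kb into the gene and belongs to an exact match, so the reference lists its intron chain. Whether the reference lists the start itself was not tested. All 4 bovine models keep the 60-bp exon. Model 1, not exact, ends at 18896884, 22.1 kb beyond the outermost end of the other 3.

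**Figure D5:**
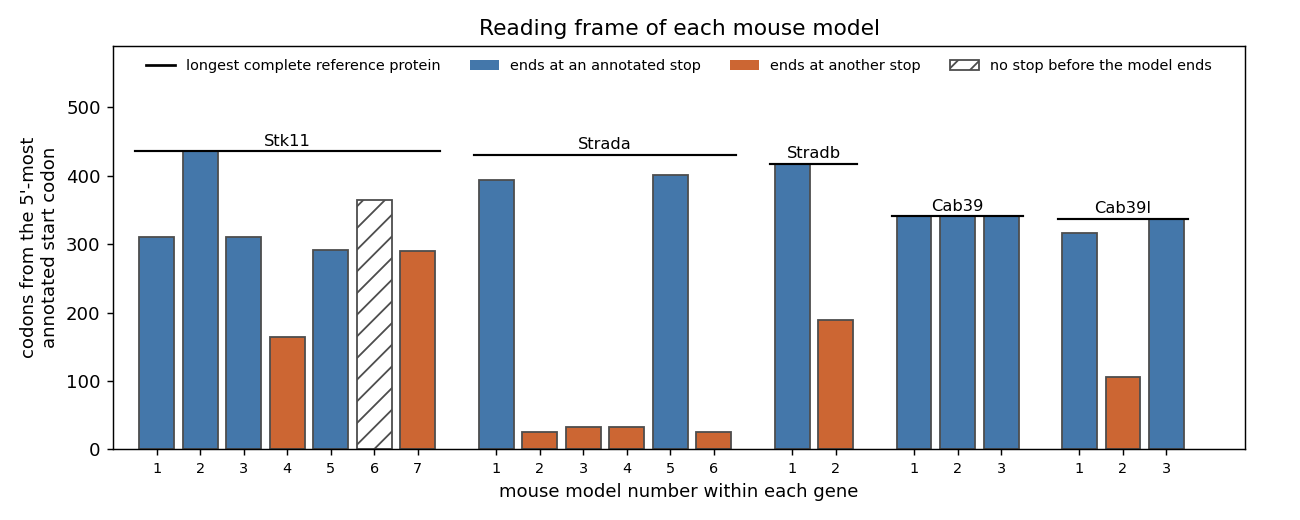
Codons from the most upstream annotated start codon (vertical axis) in each of the 21 mouse models (horizontal axis, model number within each gene). The black line is the longest complete GENCODE M21 protein of the gene. Frames that end at an annotated stop reach the line in 1 Stk11 model, 1 Stradb model, 3 Cab39 models and 1 Cab39l model.

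Over the 21 mouse models, 9 kept the whole coding part of a complete GENCODE M21 transcript. These were 3 of 7 for Stk11, 1 of 6 for Strada, 1 of 2 for Stradb, 3 of 3 for Cab39 and 1 of 3 for Cab39l. When the first coding exon could be cut, the Strada count was 4, since models 4, 5 and 6 then kept the rest of Strada-202. Exact matches were called against the reference of the deposited models, whose coding parts were not used here. Strada models 4, 5 and 6, Stradb model 2 and Cab39l model 1 are exact matches outside the 9. Whether that reference lists a coding part for them was not tested. The frame ended at an annotated stop in 12, at another stop in 8 and at no stop in 1. In 8 models, 2 of Stk11, 4 of Strada, 1 of Stradb and 1 of Cab39, the stop lay more than 50 bases before the last exon junction, the arrangement known from targets of nonsense-mediated decay. Among the 8, Strada models 4 and 6 and Stradb model 2 are exact matches, so the reference lists their intron chains. The longest frame from any ATG that reached a stop was read as well. By it 4 models had such a stop (Stk11 models 6 and 7, Stradb model 2 and Cab39 model 3), and none of Strada did. In Stk11 model 6 that frame has 148 codons, fewer than the 365 of its frame without a stop. Decay itself was not measured.

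The exon lengths showed the relation between the paralogs. The model with most exons of each gene was compared in order, leaving out first and last exons. Cab39 and Cab39l shared 6 internal exon lengths, 165, 119, 169, 60, 66 and 144 bp, in mouse and in bovine. Strada and Stradb shared 6 in each species (122, 109, 124, 172, 105 and 43 bp), and the exon between the last pair measured 242 bp in Strada and 245 bp in Stradb. Between the species, 10 lengths of Strada, 9 of Stradb, 6 of Cab39 and 6 of Cab39l were the same. Stk11 and Strada shared 1, of 58 bp. Some of the shared exons were skipped. The 60-bp exon is absent from mouse Cab39l model 1 and present in all 3 Cab39 models. The 172-bp exon is absent from Stradb model 2 and present in all 6 mouse Strada models. The 43-bp exon is absent from 1 bovine model of each paralog, STRADA model 5 and STRADB model 1.

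The kinases that the complex acts on, and other genes around it, were looked up in 6 lists with 46 genes. A sense model was found for 36 in mouse and 39 in bovine, and over all protein-coding genes of the mouse annotation 11471 of 21923 had one (52.3%, exact 95% interval 51.7% to 53.0%). No such share was computed for bovine. In mouse, 12 of the 36 had a model with an unannotated first exon, where the share over all mouse genes was 20.5%. Among list genes with an exact match, 8 of 20 in mouse and 3 of 21 in bovine had a first exon outside exact matches. Over all genes with an exact spliced match the shares were 16.8% and 17.9%. The lists were chosen with earlier results of these data known, so nothing is read from these shares. Of the AMPK subunits, 5 of 7 had a model in mouse, led by the regulatory Prkab1 and Prkag1 with 3 each and the catalytic Prkaa1 with 2, and 6 of 7 in bovine, led by PRKAB2 with 4 and PRKAA1 with 3, before PRKAB1, PRKAG1 and PRKAG2 with 2 each. Prkab2 had none in mouse, and Prkag3 had none in either.

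The AMPK-related kinases had a model for 7 of 12 genes in mouse and 8 of 12 in bovine. Mark3 had 5 models in mouse, Mark2 had 3, and Mark1 and Mark4 had 2 each, which belong to the MARK kinases of cell polarity. In bovine MARK2 had 8, SNRK 6 and MARK3 5. Brsk1, Nuak1, Nuak2, Sik2 and Snrk had no model in mouse, and BRSK1, BRSK2, MARK1 and NUAK1 had none in bovine. Of the other kinases that bind MO25, mouse had models for 4 of 5, with 7 for Stk25, 4 for Stk24, 2 each for Oxsr1 and Stk39, and none for Stk26. Bovine had models for 5 of 5, with 7 for STK39, 6 for STK24, and 3 each for STK25 and STK26. Of the other kinases that activate AMPK, Camkk2 had 3 models and Map3k7 1 in mouse, MAP3K7 had 5 and CAMKK2 4 in bovine, and Camkk1 had none in either.

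Effectors downstream of AMPK and the SIK kinases had models for 14 of 15 genes in mouse and 15 of 15 in bovine. Mouse was led by the mitochondrial fission factor gene Mff with 7, the folliculin gene Flcn with 6, and Tbc1d1 and Tsc1 with 5 each, and only Crtc3 had none. Bovine was led by RPTOR, a subunit of the growth kinase complex mTORC1, with 10, MFF with 8 and CRTC2 with 5. The chaperones and partners of LKB1 had models for 4 of 4 genes in mouse (Cdc37 and Hsp90aa1 with 2 each, Hsp90ab1 and Stk11ip with 1 each) and 3 of 4 in bovine (HSP90AB1 with 2, CDC37 and HSP90AA1 with 1 each), where STK11IP had none.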

How the data were processed

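Transcript models of 1 mouse and 1 bovine library were analysed. Per the labels' protocols, about 200 embryos per library gave RNA that was turned into cDNA, amplified with 14 PCR cycles and read on a nanopore sequencer, both in batch 1 of the labels. The authors deposited StringTie models with exon positions, class codes and gene names. These positions are the only values used, and they carry no count, score or abundance, so depth is unknown. Builds are mm10 and bosTau9, per the submitters' processing notes; the aligner, tool versions and filters were not given in the sources used here. Of 16388 exact spliced mouse models, 68.4% had an intron chain of GENCODE M21, which was checked before both were used together. Of the 21 mouse models, 4 begin at the RefSeq gene start and 7 end at the RefSeq gene end. Strada model 6 and Cab39l model 3 begin at another RefSeq start, the one used for the promoter windows. These ends may therefore come from the reference.

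Starts within 50 bp of a neighbour formed 1 cluster. Upstream meant at least 1 bp. Mouse sequence came from GENCODE M21 transcripts and the RefSeq promoter table. Intervals are exact Clopper-Pearson (scipy 1.17.1), covering counting error only and treating models as independent. The measures were tested on simulated data. Members and lists were chosen with earlier results of these data known; of each list, the 3 genes with most models per library (ties by name) and every gene without one are named, and genes tied with the third were added afterwards. A bovine genome was not used, and no test between libraries was made.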

Additional observations from a re-analysis of the deposited data

How the results depend on the processing

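No paired analysis was possible because each species had 1 library. Of 110 values recomputed under other settings, 97 stayed within 1.5 times the reported count and 13 did not. Many of the 97 could not have moved. No model of the 5 genes has code o or fewer than 2 exons, so those settings changed nothing. Upstream counts of 0 could not change under a stricter limit. A fall from 10 to 7 upstream mouse models is among the 97. The 97 are therefore no measure of stability. With exact matches only, the mouse models of the 5 genes fell to 9, with 0 for Stk11, and the listed pathway genes with a model to 20 in mouse and 21 in bovine. Joining starts within 10 bp gave 10 start clusters in mouse instead of 6, and 6 instead of 2 for bovine STRADA. The other annotation rules run could not have removed the calls of an unannotated first exon, so they say nothing of how stable these are. With at least 100 bp upstream required, the 7 Stk11 models counted and the 3 Cab39l models did not. The bovine starts rest on the exact matches of the same library as annotation.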

Other observations

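Other transcripts begin or end beside these genes. Stradb and Cab39l each lie head to head with a neighbour in both species. The outermost start of mouse Stradb is 15 bp from that of Trak2, a gene of mitochondrial transport on the opposite strand, and in bovine the distance is 175 bp. Mouse Cab39l is 54 bp from Setdb2, a gene of the family of histone methyltransferases, and in bovine the outermost starts of CAB39L and SETDB2 overlap by 25 bp, written as a gap of -25 bp. The bovine CAB39L model that ends 22.1 kb beyond the others overlaps the end of a CDADC1 model on the opposite strand by 1140 bp.

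Strada had 1 antisense model in each library (class code x), which the choice of models left out. In mouse it has 3 exons on the plus strand of chromosome 11, from 106162814 to 106170477, over the last part of the gene. In bovine it is a single exon of 1761 bp on the plus strand of chromosome 19, from 48007842 to 48009602, over the upstream group of STRADA starts. No other antisense model named for one of the 5 genes was found in either library.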
